A study of Glycyrrhiza uralensis with 30 samples.

Results

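Roots of *Glycyrrhiza uralensis* seedlings, a licorice, were compared after 24 h and after 2 h of simulated drought, to ask what separates the late from the early root state. The comparison rests on 6 of the 30 libraries of the series: 3 of underground parts at 2 h, numbered 1, 2 and 3, and 3 of underground parts at 24 h, numbered 10, 11 and 12. Both groups were wild seedlings with no genotype or strain stated, labelled as 60 days old, and both stood in MS nutrient solution with 100 g/L of polyethylene glycol 6000 (PEG 6000). They differ by label in the hours spent there alone. The other root libraries, 3 each at 6 h and 12 h of PEG and 3 controls at 0 h labelled as distilled water, and the 15 libraries of aboveground parts (stems and leaves) were used for the spread and for values beside the comparison. The labels do not give the hour of harvest, list no untreated plants at 2 h or 24 h, and do not say whether the 3 libraries of one time were made from different plants. Time in PEG, age and time of day therefore cannot be told apart here, and p-values measure the spread between these libraries, which may be technical.

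PEG 6000 is a polymer that stays outside the cell wall and lowers the water potential of the solution, so that roots take up water less easily. Plant roots are known to answer such a loss of water in phases. Within the first hours, calcium and reactive oxygen signals and fast transcription factor genes switch on and often off again, and later, hormone signalling by abscisic acid, compatible solutes and changes of growth take over. The deposited files give gene identifiers without names, so no gene here could be placed in one of these pathways. Individual values are shown for 4 identifiers, and all other genes are described in groups.

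The values are TPM, a measure of transcript abundance relative to the rest of a library and corrected for transcript length, given for 34445 genes. It carries no read depth, and how deeply a library was sequenced is unknown. In the 6 libraries, 19906 to 20824 genes stood at 1 TPM or more. The listed genes summed to 951933 to 967376 TPM at 2 h; at 24 h they summed to 928931 and 930103 TPM in libraries 10 and 11 and to 956559 TPM in library 12.

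The 3 libraries of 24 h were not alike. Over the 23107 genes tested in roots, log2(TPM + 1) of library 12 correlated with library 2 of 2 h at 0.910 and with library 1 of 2 h at 0.896 (Pearson's r across genes within these libraries), and with libraries 10 and 11 of its own time at 0.889 and 0.882. Libraries 10 and 11 correlated with each other at 0.916. Whether library 12 carries the right label cannot be told from the files, and every 24 h mean and count below includes it unless stated. On the second principal component, libraries 10 and 11 scored -76.1 and -77.4 and library 12 scored 26.6. On the first component, the 2 h libraries scored from -88.2 to -65.3 and all 3 libraries of 24 h from -36.6 to -7.79, without overlap. Library 3 of 2 h also stood apart. Genes far higher in shoots than in roots among the 0 h controls, 1161 in all, summed to 12094 TPM in library 3 and to 6152 to 7752 TPM in the other 5 libraries. Results are therefore given with and without single libraries.

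**Figure D1:**
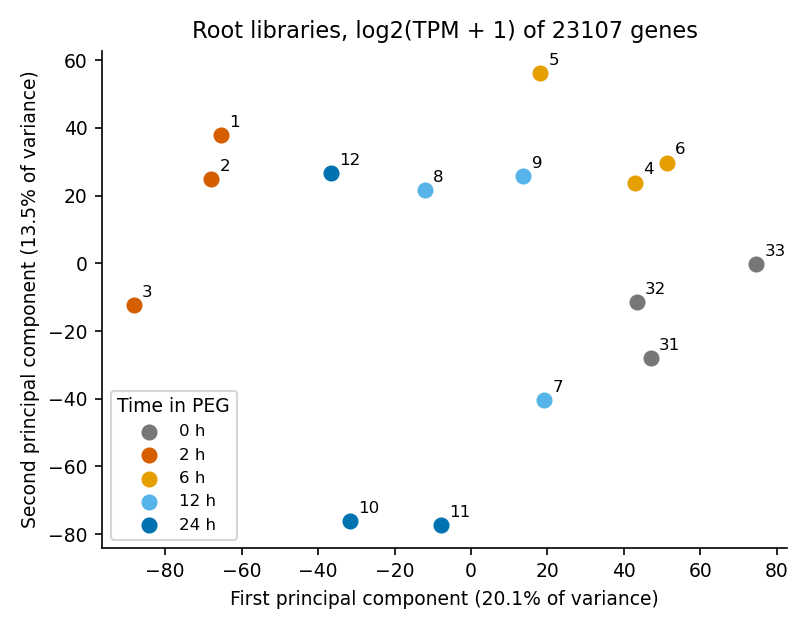
Scores of the 15 root libraries on the first and second principal components of log2(TPM + 1), each point 1 library with its number and coloured by time in PEG. Libraries 1, 2 and 3 (2 h) lie at the left, library 12 (24 h) lies near 26.6 on the second component, and libraries 10 and 11 (24 h) lie near -76.1 and -77.4.

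Between 2 h and 24 h, 600 genes were higher and 454 genes lower at 24 h among the 23107 tested (limma, Benjamini-Hochberg adjusted p below 0.05). Together these 1054 genes are 4.56% of those tested, 2.6% higher and 1.96% lower. At least 2-fold, 415 genes (1.8%) were higher and 386 (1.67%) lower. The falls were the larger changes. The median size of a called change on the log2(TPM + 1) scale, where low genes appear to change less than they do, was 1.69 for the lower genes and 1.27 for the higher ones. At least 8-fold, 51 genes were lower and 22 higher, and at least 16-fold, 22 were lower and 3 higher. The 3 libraries of one time did not overlap the 3 of the other for 596 of the 600 higher and 453 of the 454 lower genes; among all tested genes 14.3% stood without overlap in the higher direction and 6.98% in the lower one.

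The balance of higher and lower genes depended on the scaling. Over all tested genes the median log2 difference was 0.14, so that the typical gene stood slightly higher at 24 h on the deposited scale. After rescaling by median ratios it was -0.0017, and 363 genes were higher and 663 lower, which turned the share of higher calls from 56.9% to 35.4%. Of the genes called on the deposited scale, 355 of the 600 higher and 449 of the 454 lower were also called in that direction after rescaling. None changed sides. The 454 lower genes held a large share of the RNA pool at 2 h. The remaining genes together held 88.4% of the listed TPM at 2 h and 97.0% at 24 h on average, a log2 difference of 0.13. Its part in the shift of the median gene was not tested.

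The counts also depended on single libraries and on the spread borrowed from the other root groups. Without library 12, 930 genes were higher and 662 lower. Without library 1, 3, 10 or 11 the higher genes numbered 226, 151, 198 or 159 and the lower genes 247, 211, 209 or 231. At least 2-fold, these were 714, 191, 134, 162 or 141 higher without library 12, 1, 3, 10 or 11, and 232, 195, 198 or 222 lower without library 1, 3, 10 or 11. Of the 600 and 454 genes called with all libraries, 462 and 404 were also called without library 12, and 137 and 185 without library 3. In none of these fits did a gene called with all libraries change its direction. For a gene whose libraries did not overlap between the times this was fixed in advance. That held for 596 of the 600 higher and 453 of the 454 lower genes. With only the 6 libraries compared, 26 genes were higher and 38 lower.

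**Figure D2:**
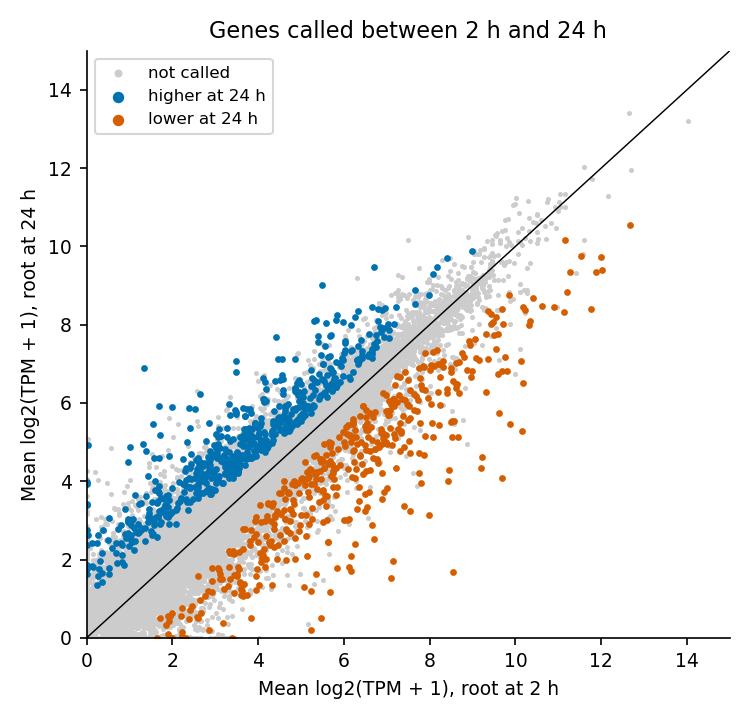
Mean log2(TPM + 1) of each tested gene in roots at 24 h against 2 h, with genes higher at 24 h in blue (600), lower in orange (454), those not called in grey, and the line of equal level. The orange points reach higher levels and lie farther from the line than the blue ones.

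The genes lower at 24 h included some of the most abundant transcripts of the 2 h roots. Together the 454 genes took 10.9%, 9.27% and 14.6% of the listed TPM in libraries 1, 2 and 3 of 2 h. They took 2.84%, 2.33% and 3.81% in libraries 10, 11 and 12 of 24 h. Every 2 h library lay above every 24 h library, but the 2 h and 24 h values had chosen these genes, so this is a description. The values at the other times entered the filter and the spread behind the calls, but not the difference tested. At those times the same genes took 2.54% to 3.48% in the 0 h controls, 2.63% to 2.83% at 6 h and 1.94% to 2.36% at 12 h. The high share was therefore seen at 2 h alone among the 5 times, and by 6 h it lay within the range of the 0 h controls. The load was uneven, since 27 of the 454 genes held 50% of the group's summed mean TPM at 2 h. Of the 454 genes, 22 averaged 1000 TPM or more at 2 h and 43 averaged under 10 TPM.

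The levels of those 22 abundant genes are given as a description, since their 2 h level of at least 1000 TPM and their lower 24 h level chose them. Their group means had a median of 102 TPM at 0 h and 1844 TPM at 2 h, with a range at 2 h of 1060 to 6591 TPM. At 6 h, 12 h and 24 h the medians were 189, 159 and 387 TPM. The 24 h median thus stood above those of 6 h and 12 h, and on the log2 scale the median difference of 24 h from 0 h was 1.62. Root controls at 0 h were higher than shoot controls for 16 of the 22 genes and lower for 0 (limma over all 30 libraries). Among all tested genes 21.6% were higher in root and 14.6% higher in shoot. The choice by a high level in 2 h roots may itself favour genes higher in root. For 21 of the 22 the 0 h level was nearer to 24 h than to 2 h, and for 1 it lay above both. The limit of 1000 TPM was set after the values were seen.

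The genes higher at 24 h were spread over many moderate transcripts. Together the 600 took 1.61%, 1.79% and 1.33% of the listed TPM in libraries 1, 2 and 3 of 2 h. At 24 h they took 4.24%, 4.33% and 3.62% in libraries 10, 11 and 12. None of them averaged 1000 TPM or more at 24 h, 98 averaged at least 100 TPM, and it took 70 genes to hold 50% of their summed mean. The shares at the times outside the comparison lay in between: 2.48% to 2.81% in the controls, 2.46% to 2.55% at 6 h and 2.68% to 3.18% at 12 h.

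**Figure D3:**
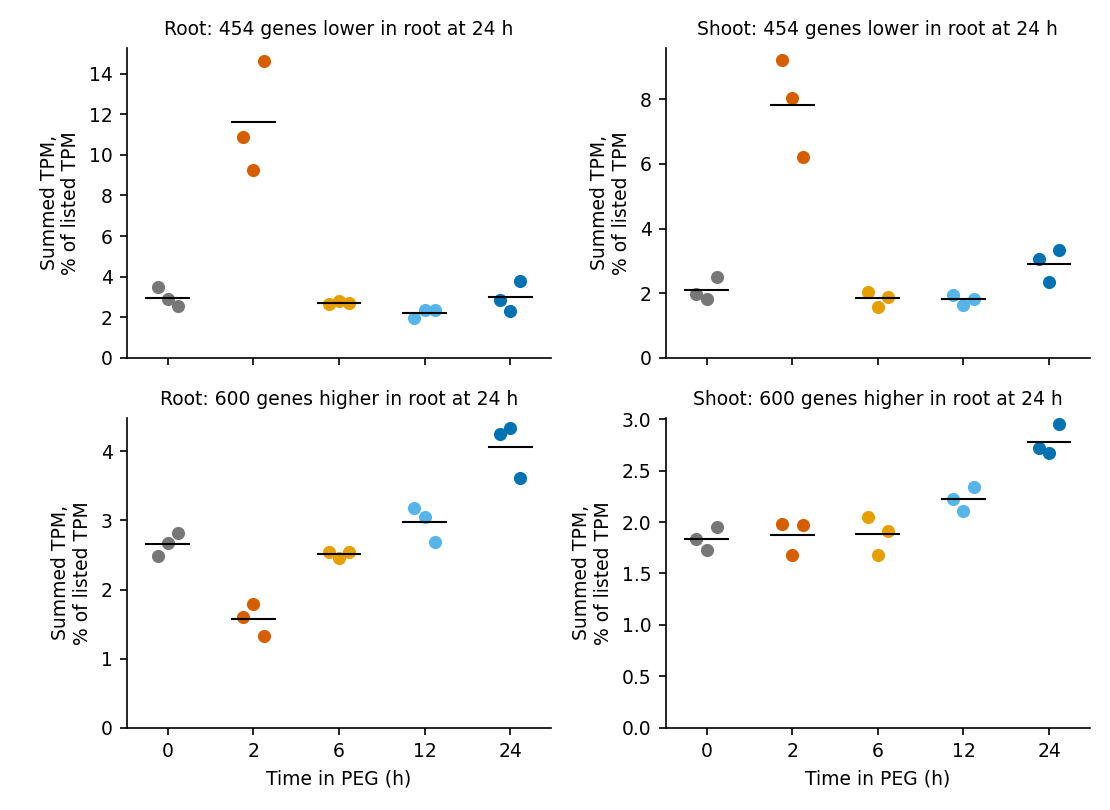
Summed TPM of the 454 genes lower and the 600 genes higher at 24 h in roots, as a percent of the listed TPM, in every root (left) and shoot (right) library by time in PEG; points are libraries and lines are group means. In roots the lower genes took 9.27% to 14.6% at 2 h and at most 3.81% at every other time, and in shoots they were also highest at 2 h.

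How the 0 h controls stood to both times divides the called genes into 4 patterns. A gene was assigned by whether its mean log2(TPM + 1) at 0 h lay nearer to the 2 h or to the 24 h mean. The controls entered the filter and the spread behind the calls, but not the difference tested. Of the lower genes, 352 of 454 (77.5%) had a 0 h level nearer to 24 h; these are called 2 h peak genes. Among all tested genes that were lower on average at 24 h, called or not, 53.4% did. The other 102 lower genes stood at 0 h nearer to their 2 h level and are called late fall genes. Of the higher genes, 321 of 600 (53.5%) had a 0 h level nearer to 24 h and are called 2 h dip genes, and 279 are called late rise genes. Among all tested genes higher on average at 24 h, 57.8% had a 0 h level nearer to 24 h. The rule says which of both times the 0 h level was nearer to, not that it was close to either, and the 0 h controls are labelled distilled water. The names of the patterns do not say in which interval after 2 h a gene moved. The share among lower genes ranged from 72.7% to 86.2% without single libraries of 2 h or 24 h, and that among higher genes from 38.4% without library 11 to 62.4% without library 1, so which of the 2 h dip and late rise genes were more numerous depended on the library left out.

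The 2 h peak genes stood at 0 h at a median level of 4.31 on the log2(TPM + 1) scale and at 2 h at 6.37. Median levels of 4.69, 4.49 and 4.53 followed at 6, 12 and 24 h. Their median log2 difference from 0 h was 1.82 at 2 h and 0.27, 0.10 and 0.13 at 6, 12 and 24 h, with -0.12 at 2 h and 0.02 to 0.03 at the later times over all tested genes. At 6 h, 317 of the 352 (90.1%) stood nearer to their 24 h than to their 2 h level, and at 12 h 335 did (95.2%); over all tested genes these shares were 53.5% and 59.1%. In all 4 patterns, these distances are measured to the 2 h and 24 h means that chose the genes and are descriptions. The 0 h mean lay below both the 2 h and the 24 h mean for 212 of the 352 genes.

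The gene with the largest change among the 2 h peak genes was Glyur000312s00022001. It stood at 161, 96.4 and 161 TPM in libraries 1, 2 and 3 of 2 h. At 24 h it was listed at 0 in libraries 10 and 11 and at 23.65 TPM in library 12. It was listed at 0 in all 3 root controls and at 12 h, and at 6 h it was at 12.5 TPM in library 5 and listed at 0 in the others. High values occurred in all 3 libraries of 2 h, and at 24 h the only value above 0 was that of library 12. In shoots it stood at 94.1 to 248 TPM at 2 h, listed at 0 to 5.4 TPM at 6 h, listed at 0 at 12 h, and 15.9 to 24.5 TPM at 24 h. The root difference of 24 h from 2 h passed limma's test (adjusted p = 0.0184), with adjusted p from 0.00162 to 0.104 over the other settings tried. It was lost with only the 6 libraries compared (0.104) and without library 1, 3, 10 or 11 (0.0562, 0.0674, 0.0703 or 0.0734).

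Late fall genes were defined by a 0 h level nearer to 2 h than to 24 h. A smaller difference from 0 h at 2 h than at 24 h therefore restates the rule. Their median log2 difference from 0 h at 2, 6, 12 and 24 h was 0.11, -0.18, -0.58 and -1.37. At 6 h, 30 of the 102 (29.4%) stood nearer to their 24 h than to their 2 h level, and at 12 h 60 (58.8%). Glyur000490s00023923 had the largest change among them, and the largest of the 4 genes named here. It stood at 638, 282 and 171 TPM in root controls and at 871, 116 and 507 TPM at 2 h. At 6 h it was at 35.2, 19.5 and 54.0 TPM, at 12 h at 2.58, 3.64 and 5.3 TPM, and at 24 h at 2.64, 2.00 and 2.08 TPM. All 3 libraries of 24 h lay far below all 3 of 2 h and of 0 h. The log2 change from 2 h to 24 h was -6.85 (SE 0.64, limma adjusted p = 1.94e-04), and the adjusted p ranged from 4.70e-05 to 0.0238 over the other settings. The 2 h and 24 h libraries chose this gene too and enter its first and last step, which favours large changes there. By step, the change was -3.44 from 2 h to 6 h (limma adjusted p = 0.00602), -2.87 from 6 h to 12 h (0.124) and -0.55 from 12 h to 24 h (0.800). It differed in shoots, where it was at 19.7 to 25.3 TPM in controls, 1418 to 4026 TPM at 2 h, 6.61 to 21.7 TPM at 6 h and 12 h, and 209 to 499 TPM at 24 h.

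The late rise genes had, by the rule, a 0 h level nearer to 2 h than to 24 h. Their median log2 difference from 0 h at 2, 6, 12 and 24 h was -0.21, 0.15, 0.43 and 1.09. At 6 h, 59 of the 279 (21.1%) stood nearer to their 24 h than to their 2 h level, and at 12 h 143 (51.3%). Glyur000023s00004945 had the largest change among them. It was at 0.21, 1.36 and 4.62 TPM at 2 h and at 77.1, 97.2 and 219.9 TPM at 24 h. In the root controls it was at 2.03, 17.1 and 46.4 TPM, at 6 h at 35.4, 45.1 and 85.0 TPM and at 12 h at 22.6, 109 and 20.7 TPM. The controls varied widely and overlapped the libraries of 2 h, 6 h and 12 h, and all 9 libraries of 6 h, 12 h and 24 h lay above those of 2 h. The log2 change from 2 h to 24 h was 5.56 (SE 0.92, limma adjusted p = 0.00634), with adjusted p from 0.00368 to 0.0289 over the other settings. The 2 h and 24 h libraries chose this gene and enter its first and last step, which favours large changes there. By step, the change was 4.38 from 2 h to 6 h (limma adjusted p = 0.0116), -0.45 from 6 h to 12 h (0.965) and 1.64 from 12 h to 24 h (0.526). In the 15 shoot libraries it stayed between 0.14 and 3.68 TPM.

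The 2 h dip genes had, by the rule, a 0 h level nearer to 24 h than to 2 h. Their median log2 difference from 0 h at 2, 6, 12 and 24 h was -1.05, -0.23, -0.08 and 0.19. At 6 h, 238 of the 321 (74.1%) stood nearer to 24 h than to 2 h, and at 12 h 269 (83.8%). Higher levels in root than in shoot controls at 0 h were called for 161 of the 321 (50.2%), against 21.6% of all tested genes, and the reverse for 32 (9.97%), against 14.6%. The control libraries entered both the pattern and that test, and a high root control makes both more likely.

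Glyur002053s00046195 had the largest change among the 2 h dip genes. It was listed at 0 in libraries 1 and 3 of 2 h and at 0.07 TPM in library 2, and stood at 52.6, 25.1 and 18.9 TPM at 24 h. It was also listed at 0 in root control 31 and root library 8 of 12 h, with 20.3 and 28.9 TPM in the other controls and 23.2 and 20.5 TPM in the other 12 h libraries. In shoots the libraries of the same numbers, 31 and 8, were listed at 0 as well, and the 2 h shoot libraries held 0, 0 and 0.22 TPM. Low values thus followed the library number in both parts at 0 h and 12 h, while at 2 h all root and shoot libraries were low. Its root difference passed limma's test with an adjusted p of 0.0457, which ranged from 0.0183 to 0.132 over the other settings. The call was lost without each of the 6 libraries in turn (0.0529 to 0.132), without a filter (0.0638), with a pseudocount of 0.1 (0.0530), with quantile normalization (0.0532) and with limma without trend (0.0553).

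**Figure D4:**
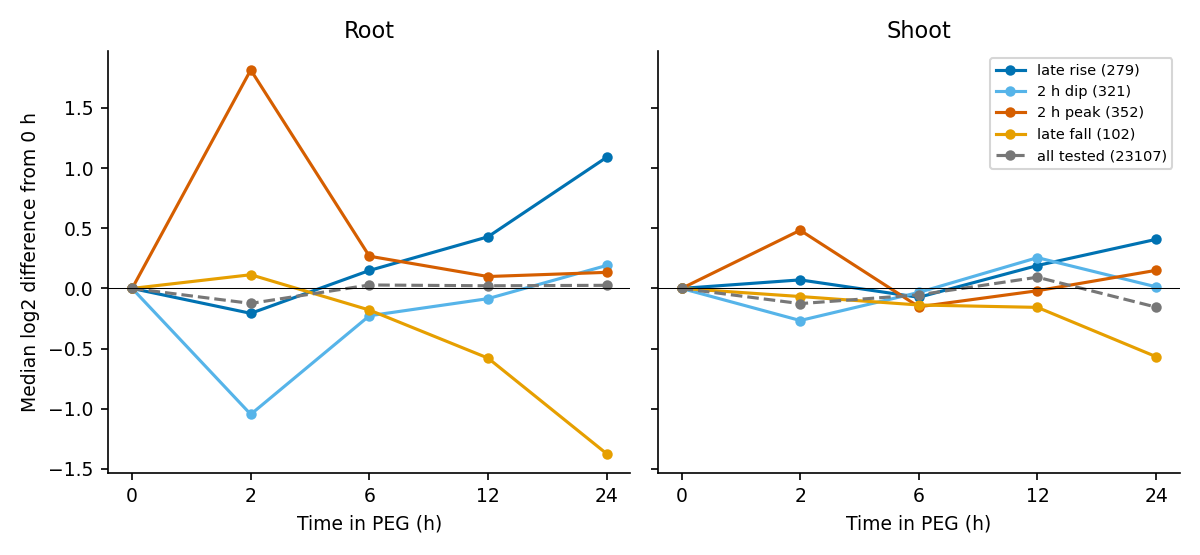
Median difference from 0 h of mean log2(TPM + 1) in roots (left) and shoots (right) for the 4 patterns of called genes and for all tested genes, by time in PEG; numbers in brackets are genes. All root points carry the choice of the genes, since the 0 h, 2 h and 24 h root means set the patterns and every root point is a difference from 0 h. The shoot libraries did not enter the choice. The 2 h peak genes stood 1.82 above and the 2 h dip genes 1.05 below their 0 h level at 2 h.

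**Figure D5:**
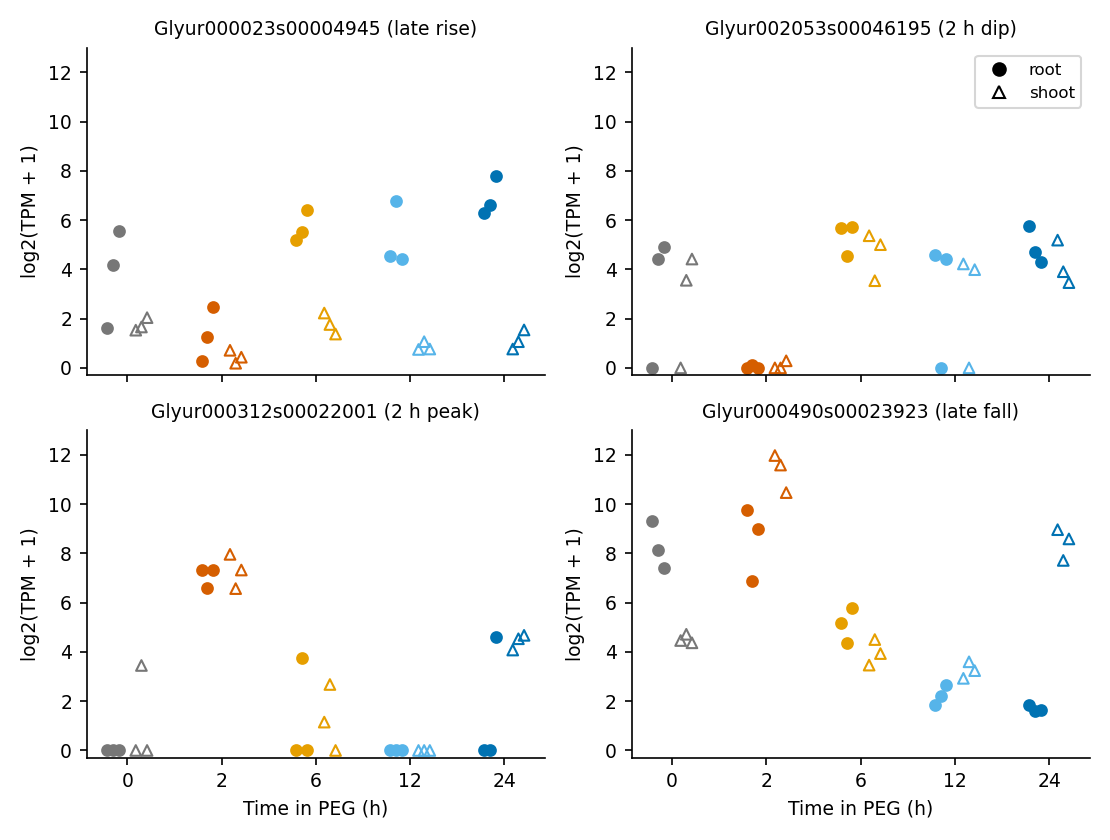
log2(TPM + 1) of the 4 genes given by identifier, in every root (filled circles) and shoot (open triangles) library by time in PEG. Glyur000490s00023923 is low in the 24 h roots and high in the 24 h shoots, and Glyur002053s00046195 has libraries at 0 at 0, 2 and 12 h.

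The steps between successive times in PEG were compared as well. From 0 h to 2 h, the step from the distilled water controls into PEG, 3244 genes were called with limma (14% of tested genes), 1388 higher (6.01%) and 1856 lower (8.03%). From 2 h to 6 h, 7.98% of tested genes were called with limma, 1135 higher (4.91%) and 709 lower (3.07%). From 6 h to 12 h, 0.182% were called, 4 higher (0.0173%) and 38 lower (0.164%). From 12 h to 24 h, 0.701% were called, 81 higher and 81 lower (0.351% each). These steps share libraries with the comparison of 24 h with 2 h, and each count rests on its own 6 libraries with the spread of all 15. The 2 h to 6 h counts were 524 and 429 without library 3, 599 and 404 without library 4 and 402 and 363 without library 6, and 680 were higher without library 5. From 6 h to 12 h, 1, 1, 1 or 0 genes were higher without library 4, 6, 7 or 8, and 19, 21, 20 or 19 lower without library 4, 5, 6 or 8. From 12 h to 24 h, 141 were higher and 159 lower without library 12, 39, 50, 46 or 46 were higher without library 7, 8, 9 or 10, and 28, 36, 40, 36 or 45 were lower without library 7, 8, 9, 10 or 11. Among the 454 lower genes the median log2 difference was -1.43 from 2 h to 6 h, -0.17 from 6 h to 12 h and 0.01 from 12 h to 24 h. Among the 600 higher genes it was 0.59, 0.19 and 0.38. The 2 h and 24 h libraries that chose these genes enter the first and the last step, which favours large medians there, and the step from 6 h to 12 h alone is free of them.

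How often genes were called differed between levels at the times outside the comparison, without a steady order. Under a mean of 1 TPM over the 0, 6 and 12 h roots, 1.65% were higher and 1.40% lower at 24 h than at 2 h. Genes of this lowest level could pass the filter through the 2 h or the 24 h libraries alone. That favours a call, so nothing is read from these shares. Among genes averaging 10 to 100 TPM, 3.22% were higher and 2.35% lower. From 100 to 1000 TPM these shares were 4.19% and 3.74%. From 1 to 10 TPM they were 1.67% and 1.23%, where the median standard error of the difference was 0.42, against 0.26 at 10 to 100 TPM. Of the 71 genes averaging 1000 TPM or more, 0 were higher and 2 lower.

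Genes listed at 0 at one time and present at the other were few. In all 3 libraries of 2 h, 20 genes were listed at 0 that stood at 1 TPM or more in all 3 libraries of 24 h. The reverse held for 15 genes. Of the 20, 9 passed limma's test as higher at 24 h, and of the 15, 5 passed it as lower, where 2.6% and 1.96% of all tested genes did. Being at 0 in all libraries of one time was part of how they were chosen, so nothing is read from these counts. Of these 35 genes 16 and 13 were above 0 in some root control, and 19 and 14 in some library of 6 h or 12 h, so few were seen at a single time. Group means where present had medians of 4.84 TPM at 24 h and 5.2 TPM at 2 h.

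The same contrast in shoots uses other libraries. There, 132 genes were higher at 24 h than at 2 h and 340 lower among 23541 tested with limma (0.561% and 1.44%, together 2.01%). Of the 439 lower root genes also tested in shoots, 77 (17.5%) were lower in shoots and 0 higher, where 1.53% and 0.535% of all genes tested in both parts were lower and higher. Of the 581 higher root genes tested in shoots, 21 (3.61%) were higher in shoots and 0 lower. The late fall genes had the highest share, with 23 of 100 lower in shoots, and of the 2 h peak genes 54 of 339 (15.9%) were. Root and shoot libraries of one number deviated together from their group means, with a correlation across genes of 0.0973 to 0.261 in the 6 pairs of 2 h and 24 h, so the parts are not fully independent. With only the 6 root libraries compared in the root fit, there were 6 shared falls and 4 shared rises. The 77 shared falls became 49, 46 or 47 without root library 1, 3 or 10, and the 21 shared rises 11, 5, 10 or 5 without root library 1, 3, 10 or 11. The shoot counts of 132 and 340 were 62 and 168, 49 and 133 or 58 and 158 without shoot library 1, 2 or 11, and 210 were lower without shoot library 10.

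As a share of the RNA pool, the 454 lower root genes had a 2 h maximum in shoots as well. They took 9.21%, 8.03% and 6.22% of the listed TPM in shoot libraries 1, 2 and 3 of 2 h. They took 3.05%, 2.34% and 3.33% at 24 h and 1.57% to 2.49% at 0, 6 and 12 h. All 3 shoot libraries of 2 h lay above the other 12. The genes that carried the 2 h share differed between the parts. In libraries 1, 2 and 3, late fall genes held 4.02%, 2.95% and 1.94% in shoots and 1.23%, 0.695% and 1.38% in roots. The 2 h peak genes held 5.19%, 5.08% and 4.28% in shoots and 9.65%, 8.58% and 13.3% in roots. The 22 genes averaging 1000 TPM or more in 2 h roots had a median of 59.8 TPM in 2 h shoots. The 600 higher root genes took 2.67% to 2.95% in shoots at 24 h, above the 1.68% to 2.34% of the other shoot libraries. With 3 libraries against 3, an exact two-sided permutation test cannot give a p below 0.1, and none was run on these sums.

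Whether the change from 2 h to 24 h differed between the parts was tested directly over all 30 libraries. The difference passed limma's test for 168 of 25420 genes (0.661%), 89 with a more positive change in roots (0.35%) and 79 with a more negative one (0.311%). The means moved in opposite directions for most of these: up in roots and down in shoots for 78, and down in roots and up in shoots for 55. Opposite directions enlarge the difference that chose these genes, so this majority is favoured by the choice and is a description. Of the 168 genes, 27 were among the 600 higher and 55 among the 454 lower root genes, and the root libraries enter both tests. Among the 4 genes given here, the difference passed for Glyur000023s00004945 and Glyur000490s00023923 and not for Glyur000312s00022001 (limma adjusted p = 0.462) or Glyur002053s00046195 (0.923). All 4 were chosen by their root change, which enters this test and favours a difference. The 168 became 33, 52 or 65 without root library 3, 10 or 11, and 49, 91 or 70 without shoot library 1, 2 or 11.

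The balance of root and shoot genes was read from lists set on the 0 h controls alone. Of 805 tested genes that were at least 8-fold higher in shoot than in root controls, 13 (1.61%) were higher and 10 (1.24%) lower in roots at 24 h, below the 2.6% and 1.96% of all tested genes. Of 645 genes at least 8-fold higher in root controls, 33 (5.12%) were higher and 29 (4.5%) lower. The lists also differ in level. In the 6 libraries the median log2(TPM + 1) was 0.816 to 1.77 for all shoot-high and 4.89 to 5.66 for root-high genes. By mean over the 0, 6 and 12 h roots, 1.67% were higher and 1.23% lower at 1 to 10 TPM. At 10 to 100 TPM these shares were 3.22% and 2.35%. The part of level in the shares of both lists was not tested. The root-high genes summed to 151202 to 173546 TPM at 2 h, to 128326 and 109155 TPM in libraries 10 and 11, and to 159057 TPM in library 12, so library 12 stood nearer to the 2 h libraries in this sum too. Of the 1054 called genes, 23 were shoot-high and 62 root-high. The part of the differing shares of root and shoot genes in the other results was not tested.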

How the data were processed

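Per the file headers, the authors deposited TPM per gene, 1 table per library, for the same 34445 genes. Tools listed without role or version in the submitters' processing notes are RSEM, StringTie, HISAT2, fastp, edgeR and DESeq2. Build and annotation: not given in the sources used here. Because TPM is relative, a few abundant genes that go up push all others down. Reads of near-identical copies may be split, and an exact 0 is described as listed at 0. No 2 root libraries held identical values, and 5747 genes were at 0 in all of them.

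From the deposited TPM, log2(TPM + 1) was tested with limma 3.58.1 in R 4.3.3 (with trend; p-values adjusted by Benjamini-Hochberg, called under 0.05). A gene had to reach 1 TPM in 3 or more libraries of its fit. The root and shoot comparisons used the 15 libraries of a part, and the tests between parts all 30. Named genes had no overlap between times, at least 10 TPM in the higher group and the largest change in each of the 4 patterns. The comparison, lists and tests were chosen with earlier results of these data known. Planned gene lists by name could not be applied. Alternatives were other filters, a pseudocount of 0.1, quantile and median-ratio scaling, no trend, library weights, the libraries compared alone, a block for the number, and omission of each library. Figures used matplotlib 3.10.9.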

Additional observations from a re-analysis of the deposited data

Results flagged for a closer look

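The change from 2 h to 24 h differed between roots and shoots for 168 genes by limma's test of the difference itself. For Glyur000023s00004945 the log2 change in roots exceeded that in shoots by 4.88 (SE 1.01, limma adjusted p = 0.0275): it was 5.56 in roots and 0.68 in shoots. For Glyur000490s00023923 the difference was -3.93 (SE 0.79, limma adjusted p = 0.0236), from -6.85 in roots and -2.92 in shoots, so both parts went down and roots by more. Both genes were named for the largest root change of their pattern. The same root libraries enter this test, which favours a large difference.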

How the results depend on the processing

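Of 161 values recomputed under settings other than leaving out a library, 129 were scored as kept and 0 as reversed. Without single libraries 55 of 138 were scored as kept and 0 as reversed. Changes of genes given by identifier were kept if direction and call held, and only these could be scored as reversed. These genes had no overlap between the 2 h and 24 h libraries. Leaving out a library could therefore not reverse them, and that count was fixed in advance. Counts were kept within a set ratio, so that 480 higher genes without a filter scored as kept against 600. Shares were kept within a binomial interval of the main share. Leaving out a library also leaves fewer in its group, which by itself lowers a count. Genes higher in roots at 24 h than at 2 h numbered 389 with quantile normalization and 363 with median-ratio scaling (252 and 266 at least 2-fold). With only the 6 libraries compared, which leaves fewer libraries for the spread, 26 were higher and 38 lower, all at least 2-fold. That fit also leaves the root groups of largest median SD, 0.356 at 2 h and 0.388 at 24 h. At 0, 6 and 12 h the median SD was 0.354, 0.266 and 0.282, so the shared spread draws on less variable groups. How much each lowered the counts was not tested. Library weights gave 2245 higher and 1353 lower from 2 h to 6 h, 103 and 236 from 6 h to 12 h, 126 and 150 from 12 h to 24 h, 82 higher in shoots at 24 h than at 2 h and 110 genes differing between the parts. From 6 h to 12 h, 2 were higher with a filter of 5 TPM and 7 with quantile normalization. With only the libraries compared, 7 genes were higher and 12 lower in shoots and 3 differed between the parts. Where no construction is named, the cause was not tested.

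Without single libraries the ranges were 151 to 930 higher and 209 to 662 lower in roots at 24 h against 2 h (134 to 714 and 195 to 557 at least 2-fold), 402 to 941 and 363 to 631 from 2 h to 6 h, 0 to 6 and 19 to 37 from 6 h to 12 h, 39 to 141 and 28 to 159 from 12 h to 24 h, 49 to 190 and 133 to 461 in shoots, and 33 to 226 genes differing between the parts.

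The 2 h and 24 h libraries share no numbers, so only the difference between the parts could be paired. With the library number as a replicate block, 170 genes differed in place of 168. Same-numbered root and shoot libraries deviated together with correlations of 0.0973 to 0.345, over 0.1 in 14 of 15 pairs. Each of the 15 root libraries correlated best with its own number, a hint from the data and not from the labels. Deviations from a group mean cancel within the group, so the matches of one time are not independent of each other. The share of higher genes with a 0 h level nearer to 24 h was 46.3% with median-ratio scaling and 58.9% with a filter of 5 TPM. Chosen after the data were seen, leaving out 0 h libraries 31, 32 or 33 gave 58.3%, 50.3% or 48.7% for the higher and 77.8%, 79.5% or 75.8% for the lower genes. The TPM files keep no depth, so precision at low levels cannot be given.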

Other observations

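Called genes stood next to each other in the order of the identifiers more often than other genes did. Of the 600 genes higher at 24 h, 37 (6.17%) had a directly neighbouring identifier, with the same digits before the letter s, that was also higher, against 3.15% of the 22053 tested genes that were not called. Of the 454 lower genes, 30 (6.61%) had a lower neighbour, against 2.46%. Neighbours called in the opposite direction occurred for 5 genes in each direction. What the digits stand for is not stated in the files, and no test was made. The median spread within a group (SD of log2(TPM + 1) over 3 libraries) was 0.388 at 24 h and 0.356 at 2 h in roots, against 0.266 at 6 h and 0.282 at 12 h.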
